A study of Mus musculus with 2 samples.

Results

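Protoplasmic astrocytes of the ventral parafacial region were selected on measured UMIs (unique molecular identifiers, each standing for 1 captured transcript) from 2 single-cell RNA sequencing libraries, and number 1513 of the 12395 cells that passed the filters on cells. A cell was taken when it held at least 4 UMIs in all of *Aqp4*, *Gja1*, *Slc7a10*, *Slc6a11* and *Gjb6*, called the panel here. It could hold at most 1 UMI of *Myoc*, *Gfap* and *C4b*, at most 2 of *C1qa*, *C1qb*, *Cldn5* and *Flt1*, at most 1 of *Mog* and *Mag*, at most 1 of *Pdgfra* and *C1ql1*, and 0 of *Slc32a1* and *Slc17a6*. These limits are on genes that mark fibrous astrocytes, microglia and endothelium, oligodendrocytes, their precursors and neurons with a vesicular transporter. Before that, barcodes were kept only with 800 genes or more, no more than 50 UMIs of hemoglobin genes and a mitochondrial share of 20% or less. The selected astrocytes are called members where they are set against other cells.

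The tissue was microdissected from the ventral medulla of C57BL6/J mice at postnatal day 10 and dissociated with a protease at warm temperature and by trituration. Each library pooled 8 mice, 4 male and 4 female, so that single animals cannot be told apart. The untreated library (labelled WT, batch 1) came from mice without treatment and the 4OH-tamoxifen library (batch 2) from mice given 0.2 mg per day for 3 days. 4OH-tamoxifen is a ligand of estrogen receptors, mostly given to switch on tamoxifen-dependent Cre, and the labels name no Cre or reporter allele in either group. Each condition has 1 library, so treatment, batch, mice and preparation cannot be told apart, no test between conditions was made, and values are given in the order untreated, 4OH-tamoxifen.

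Protoplasmic astrocytes are the bushy astrocytes of gray matter. They enwrap synapses and vessels, take up glutamate, GABA and glycine, buffer extracellular potassium, carry bicarbonate and share small molecules through gap junctions. In the ventral medulla, astrocytes near the surface are studied for their part in the sensing of carbon dioxide and protons and in the release of ATP onto respiratory neurons. Fibrous astrocytes, rich in the filament protein Gfap, lie in white matter and at the pial surface.

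The untreated library gave 472 astrocytes of 3345 filtered cells (14.1%, exact binomial 95% interval 12.9 to 15.3%) and the 4OH-tamoxifen library 1041 of 9050 (11.5%, 10.9 to 12.2%). The shares depend on the thresholds and on depth and are a description. All intervals given here cover counting error only. The libraries held 18496942 and 34704167 UMIs. The astrocytes held a median of 2580 and 1984 UMIs and 1213 and 1009 genes, against 3632 and 2466 UMIs in all filtered cells, and a median of 4.94% and 7.43% of their UMIs were ribosomal. Of 14008 barcodes, 40 sequences occurred in both libraries, and 2 of these were astrocytes. Doublets were not removed. Scrublet, a doublet caller, marked 0 and 37 of the astrocytes, but only 6 of 3767 untreated barcodes (0.159%).

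The panel genes chose the cells, and their levels are given without a test. A level is the UMIs summed over the astrocytes of a library per 1000000 of their UMIs (CPM). The chemistry reads a tag near the 3' end of each transcript, so levels are not scaled by gene length, and capture can differ between genes. *Slc6a11*, a GABA transporter of astrocytes, stood at 3225 and 2583 CPM, with a UMI in 97.5% and 98.2% of the cells. *Aqp4*, the water channel of astrocyte endfeet, had 2529 and 1771 CPM. *Gja1*, the main connexin of astrocyte gap junctions, had 1957 and 1517 CPM. *Slc7a10*, which exchanges D-serine and other small neutral amino acids, had 1290.0 and 845 CPM and was found in 88.6% and 78.8% of cells. *Gjb6*, the second astrocyte connexin, stood at 456 and 332 CPM. All 5 were lower in the 4OH-tamoxifen library, by ratios of 0.655 (*Slc7a10*) to 0.801 (*Slc6a11*), and the per-cell panel sum had a median of 26 UMIs in the untreated and 15 UMIs in the 4OH-tamoxifen library. In the 407 and 505 astrocytes with at least 2000 UMIs, thinned to that number, the median *Slc7a10* count was 2 and 1 UMIs per cell. Thinning left out 65 and 536 shallower astrocytes.

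**Figure D1:**
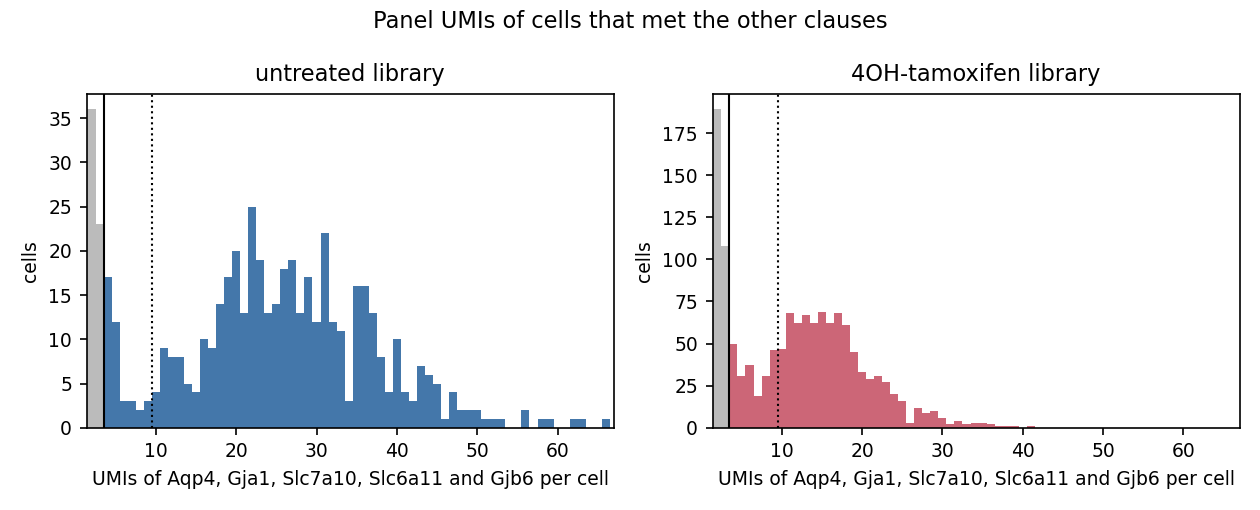
Number of cells (vertical) by the summed UMIs of *Aqp4*, *Gja1*, *Slc7a10*, *Slc6a11* and *Gjb6* per cell (horizontal) among cells that met every other clause, from 2 UMIs upward, in each library. Coloured bars are the selected astrocytes, the solid line is the threshold of 4 UMIs and the dotted line marks 10 UMIs. Members with 4 to 9 UMIs, 40 untreated and 214 4OH-tamoxifen cells, lie below the main group. In the 4OH-tamoxifen library they run into it without a gap, with 31, 46 and 47 cells at 8, 9 and 10 UMIs.

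Cells near the threshold were not like the main group. Members with 4 to 9 panel UMIs made up 8.47% of the astrocytes in the untreated library and 20.6% in the other. In the plot of panel UMIs they are a low shoulder in the untreated library and run into the main group in the other. They held 435 and 1646 CPM of *Slc1a2*, the main glutamate transporter of astrocytes, against 2489 and 2946 CPM in the cells with 10 or more panel UMIs. *Meg3*, a long noncoding RNA abundant in neurons, stood at 7166 and 3729 CPM in them and at 189 and 392 CPM in the others. The pericyte gene *Vtn* stood at 2060.5 and 209 CPM against 68.5 and 16.7 CPM, and the fibroblast collagen *Col1a1* at 1397 and 179 CPM against 43.7 and 38.6 CPM. Just outside the threshold, 23 and 108 cells with 3 panel UMIs held 296 and 584 CPM of *Slc1a2*, and just inside it 17 and 50 cells with 4 panel UMIs held 299 and 995 CPM. Members with few panel UMIs thus held more of the markers of other cell types, and results that rest on them are also given for the 432 and 827 astrocytes with 10 or more panel UMIs, a limit set after the values were seen.

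Signal of other cell types was measured in all astrocytes by marker lists, less the genes the rule used. At least 4 UMIs of the 19 neuron markers were present in 29.4% and 55.5% of the astrocytes. The microglia-rule cells, chosen by 10 or more UMIs of *C1qa* and *C1qb* and used here as a gauge of signal from other cells (free RNA or doublets), passed the same limit in 25.1% and 56.6%, at a median depth of 4070.0 and 2408 UMIs. In the members with 4 to 9 panel UMIs the share was 72.5% and 64.0%. Set against depth, the neuron markers summed to 2505 and 3708 CPM in all astrocytes and 1146 and 2418 CPM with 10 or more panel UMIs. In microglia-rule cells they summed to 915 and 1733 CPM, which is less. The 8 pericyte markers reached 4 UMIs in 4.66% and 2.40% of astrocytes and the 7 fibroblast markers in 3.60% and 1.06%, and with 10 or more panel UMIs these shares were 1.62% and 0.967% for pericyte and 1.16% and 0.484% for fibroblast markers. The 11 microglia markers reached it in 1.48% and 1.92%. The 9 markers of oligodendrocyte precursors reached it in 57.6% and 37.8% of astrocytes against 2.48% and 4.75% of microglia-rule cells. Most of their UMIs were of *Ptprz1* (1004 and 876 CPM) and *Cspg5* (414 and 369.8 CPM), which astrocytes also make. *Gpr17*, a gene of committed precursors, stood at 641 and 539.9 CPM in the members with 4 to 9 panel UMIs against 54.0 and 108 CPM in those with 10 or more. Oligodendrocyte markers reached it in every astrocyte and in every microglia-rule cell, with *Mbp* at 10960.2 and 12988 CPM in the astrocytes and 9113 and 12868 CPM in the microglia-rule cells. Panel UMIs were also spread over other cells, since 9.29% and 11.4% of the microglia-rule cells held at least 4 and 2.79% and 4.57% at least 10.

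Genes that mark astrocytes and that the rule did not use were found in the selected cells. All 15 on a list of general astrocyte markers were found in a larger share of the astrocytes than of the microglia-rule cells, with intervals that did not overlap in either library. Over all 17112 genes with a UMI in either group 7.45% passed that comparison, and 29.1% of the 2582 genes at 50 CPM or more in the astrocytes of both libraries. Over all lists together 172 of 520 genes passed, and the counts of passing genes given for each list below stand beside these shares. *Slc1a2* had 2282 and 2674 CPM and was found in 96.4% and 97.5% of cells, against 61.3% and 68.7% of microglia-rule cells. *Slc1a3*, the other astrocyte glutamate transporter, had 1009 and 921 CPM. *Aldoc*, an aldolase of glycolysis, stood at 2101 and 2316 CPM. The fibroblast growth factor receptor *Fgfr3* was found in 85.4% and 77.5% of astrocytes against 12.4% and 17.4% of microglia-rule cells. *Sox9*, a transcription factor of astrocyte identity, had 226 and 227 CPM, and *Aldh1l1*, a folate enzyme often used to mark astrocytes, 148 and 102 CPM. A UMI of *Aldh1l1* was found in 32.4% and 19.0% of astrocytes against 7.74% and 3.87% of microglia-rule cells.

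**Figure D2:**
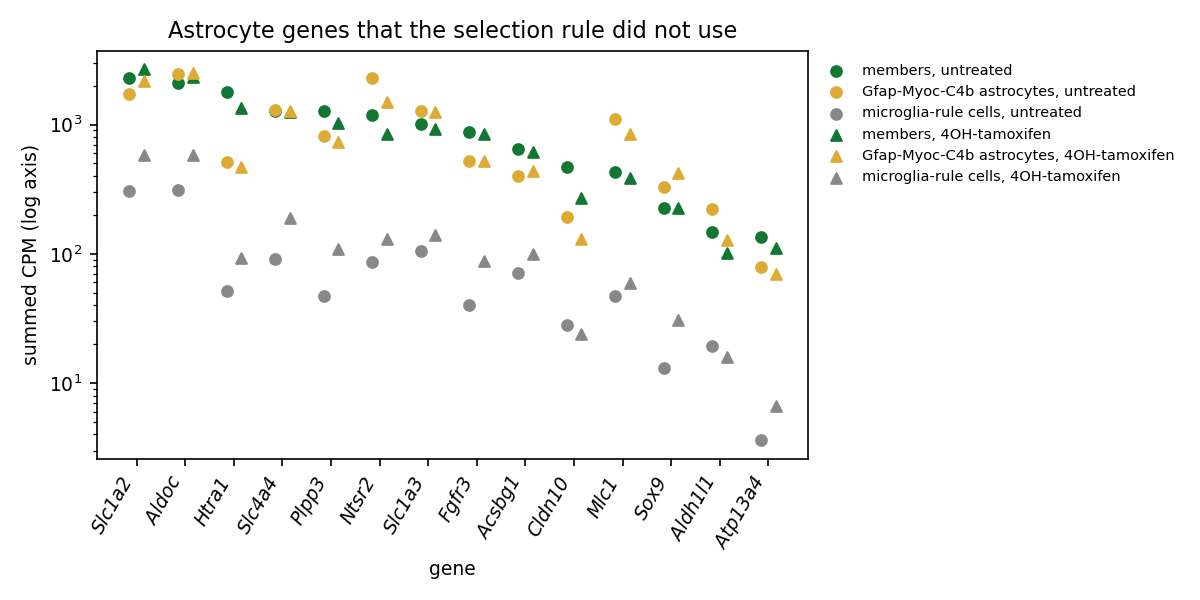
Summed CPM (vertical, log axis) of 14 general astrocyte genes (horizontal) in the selected astrocytes (green), in *Gfap*-*Myoc*-*C4b* astrocytes (yellow) and in microglia-rule cells (gray), with circles for the untreated and triangles for the 4OH-tamoxifen library. Both astrocyte groups lie above the microglia-rule cells for every gene shown, and *Slc1a2* stands at 2282 and 2674 CPM in the selected astrocytes.

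Over all genes other than mitochondrial and ribosomal ones, the nuclear RNA *Malat1* was highest (103149 and 102255 CPM). Ranked by the mean of both libraries, it was followed by *Cst3*, a secreted protease inhibitor, at 22933 and 14304 CPM, and *Apoe*, the main lipid carrier made by astrocytes, at 19528 and 12035 CPM. *Mbp*, a myelin gene, had 10960.2 and 12988 CPM, below *Apoe* in the untreated and above it in the 4OH-tamoxifen astrocytes, and the other filtered cells held 12788 and 14998 CPM of it. The metal-binding *Mt1* stood at 4955 and 8644 CPM, the matrix protein *Sparcl1* at 4879.8 and 3682 CPM and creatine kinase *Ckb* at 4103 and 3402 CPM. The acyl-CoA binding protein *Dbi* had 3338 and 3709.7 CPM and the ferritin chain *Fth1* 2471 and 3258 CPM. *Atp1b2* and *Slc6a11*, both membrane transport proteins, were also among the 12 most abundant.

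Genes of potassium and water handling came next. Of 16 on that list, 10 passed the microglia-rule share in both libraries. The sodium pump subunit *Atp1b2* had 3514 and 3343 CPM, and a UMI of it was found in 96.6% and 96.7% of cells. *Kcnj10*, the inward rectifier that carries most of the potassium conductance of astrocytes, stood at 749 and 572 CPM and was found in 78.6% and 65.1% of cells against 31.0% and 27.8%. *Kcnj16*, which joins *Kcnj10* in a channel sensitive to protons, stood at 111 and 113 CPM, in 25.4% and 21.4% of cells. The leak channel *Kcnk1* had 297 and 219 CPM, while *Kcnk2* stood at 16.9 and 21.0 CPM, with shares of 4.03% and 3.94% against 1.86% and 2.46% of microglia-rule cells. *Mlc1* and *Hepacam*, partners in a membrane complex at astrocyte junctions, had 431 and 389 CPM and 389 and 382 CPM. The pump subunit *Atp1b1* stood at 116 and 182 CPM.

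The uptake of transmitters was represented on the GABA, glutamate and glycine sides. Of 16 genes listed, 10 passed the microglia-rule share in both libraries. *Slc6a9*, the glycine transporter of glia, had 731 and 594 CPM. It was found in 74.7% and 66.7% of the astrocytes with at least 2000 UMIs, thinned to that number. *Glul*, the enzyme that makes glutamine, stood at 874 and 911 CPM, but its shares of 83.1% and 81.5% stood beside 89.8% and 72.6% in microglia-rule cells. *Slc38a3*, which exports glutamine, had 584 and 388 CPM. *Abat*, which breaks down GABA, had 132 and 213 CPM, and the GABA-making *Gad1* had 3.08 and 2.73 CPM. The cystine-glutamate exchanger *Slc7a11* stood at 179 and 109 CPM.

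Genes that make and move serine and glycine formed a list of 13, of which 4 passed the microglia-rule share in both libraries. *Slc1a4*, a carrier of serine and other neutral amino acids, had 153 and 154 CPM. *Phgdh*, the entry enzyme of serine synthesis, stood at 91.6 and 88.4 CPM and was found in fewer astrocytes (22.7% and 16.2%) than microglia-rule cells (54.2% and 32.5%). *Srr*, which makes D-serine from L-serine, had 23.1 and 29.1 CPM, with shares of 5.93% and 5.76% against 4.02% and 2.99%. *Gldc*, a subunit of the glycine cleavage system, was found in 2.33% and 2.88% of astrocytes.

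Of 24 genes of acid and bicarbonate handling, 8 passed that share. *Slc4a4*, the electrogenic sodium-bicarbonate cotransporter, led at 1281 and 1240.2 CPM, in 90.5% and 87.2% of cells against 23.5% and 34.1%. Carbonic anhydrase *Car2* had 297 and 271 CPM and the anion exchanger *Slc4a3* 73.2 and 51.9 CPM. The proton-gated channel *Asic1* stood at 47.8 and 50.1 CPM. *Gjb2*, a connexin whose hemichannel opens to carbon dioxide, was found in 5.08% and 2.88% of astrocytes against 0.619% and 0.351% of microglia-rule cells. The proton-sensing receptor *Gpr4* had 2.31 and 1.37 CPM. No UMI of *Gpr65*, *Kcnk5*, *Trpa1* or *Car12* was found, a count that allows a UMI in up to 0.636% and 0.288% of the astrocytes. The monocarboxylate carrier *Slc16a1* stood at 79.3 and 58.3 CPM.

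On the purinergic list 5 of 18 genes passed. The adenosine receptor *Adora1* had 91.6 and 124 CPM and *Adora2b* 80.9 and 57.8 CPM, and *Adora2b* was 9.49-fold and 8.73-fold above the other filtered cells. *Entpd2*, an ectonucleotidase that hydrolyses ATP, had 143 and 82.0 CPM and adenosine kinase *Adk* 109 and 85.6 CPM. The ATP and ADP receptor *P2ry1* was found in 18.6% and 10.5% of astrocytes against 1.55% and 1.58%. *Slc17a9*, the vesicular nucleotide transporter, had 0 UMIs in the untreated astrocytes and 0.455 CPM in the 4OH-tamoxifen ones. *Nt5e*, which turns AMP into adenosine, had 0.770 and 0.911 CPM, and no UMI of adenosine deaminase *Ada* was found. *P2ry12*, a marker of microglia, was in 1.91% and 1.34% of astrocytes against 94.1% and 79.1% of microglia-rule cells.

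Receptors for peptides, amines, glutamate and GABA formed the longest of these lists, and 20 of 36 passed. *Gpr37l1* led at 1679.7 and 1244 CPM. The neurotensin receptor *Ntsr2* had 1178 and 840.3 CPM and the endothelin receptor *Ednrb* 1161 and 837 CPM. *Gria2*, a subunit of AMPA receptors that lowers their calcium permeability, had 517 and 478 CPM, against 110.1 and 98.4 CPM for *Gria1*. The metabotropic glutamate receptor *Grm5* stood at 236 and 204 CPM and *Grm3* at 31.6 and 24.6 CPM. The GABA-A subunits *Gabrb1*, *Gabra2* and *Gabrg1* had 299 and 286 CPM, 136 and 127 CPM and 182 and 109 CPM. Among adrenergic receptors *Adra2a* had 166 and 129.8 CPM, *Adrb1* 33.1 and 23.2 CPM and *Adra1a* 13.9 and 14.1 CPM. The sphingosine phosphate receptor *S1pr1* had 497 and 420.4 CPM. On the list of calcium signalling and exocytosis 4 of 16 passed, led among calcium release channels by *Itpr2* at 110.1 and 129.8 CPM, although its shares of 24.2% and 20.2% were near the 20.1% and 14.6% of microglia-rule cells. *Plcd4*, a phospholipase C, was 9.40-fold and 6.36-fold above the other filtered cells at 102 and 81.1 CPM.

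Lipid, glycogen and glucose genes made up much of the metabolism list, of which 24 of 33 passed. The acyl-CoA synthetase *Acsbg1* had 643 and 616 CPM and *Acsl6* 425 and 281 CPM. The fatty acid binding proteins *Fabp5* and *Fabp7* had 1545 and 1269.8 CPM and 1362 and 1118 CPM. *Pygm*, a glycogen phosphorylase, had 163 and 177 CPM and was found in 33.9% and 29.4% of astrocytes, while the glycogen phosphorylase *Pygb* had 171 and 183 CPM. *Slc2a1*, the glucose transporter of glia and endothelium, had 136 and 121 CPM. Thyroid hormone genes were found too, with 6 of 9 past the microglia-rule share. *Dio2*, which activates the hormone, had 63.2 and 86.1 CPM, its carrier *Slco1c1* 111 and 67.9 CPM and the receptor *Thra* 174 and 266 CPM. No UMI of *Dio3*, which inactivates the hormone, was found.

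Of 35 secreted, matrix and synapse-related genes, 24 passed. The hyaluronan-binding *Bcan* had 1981 and 1825 CPM and *Ncan* 415 and 448 CPM. Angiotensinogen, *Agt*, stood at 893 and 628 CPM and the neurotrophin receptor *Ntrk2* at 747 and 737 CPM. *Gpc5*, a glypican, had 165 and 102 CPM, above *Gpc6* (32.3 and 36.9 CPM) and *Gpc4* (23.1 and 15.9 CPM). *Vegfa*, an angiogenic factor, had 137 and 86.5 CPM. The thrombospondins *Thbs3* and *Thbs2* were present at 60.1 and 56.0 CPM and 53.1 and 34.2 CPM, *Thbs1* at 1.54 and 3.64 CPM, and no UMI of *Thbs4* was found.

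Transcription factors included 16 of 25 past the microglia-rule share. *Id2* had 1847 and 1312 CPM and *Id3* 969.6 and 583 CPM, both inhibitors of helix-loop-helix factors, while *Id4* had 20.8 and 22.8 CPM. *Olig1* and *Olig2*, known from the oligodendrocyte lineage, had 592 and 637 CPM and 156 and 136 CPM, and *Olig2* was found in 30.5% and 20.5% of astrocytes against 4.33% and 6.68%. *Rorb* and *Dbx2* had 187 and 200.4 CPM and 234 and 202 CPM. Of 25 genes of hindbrain position, 2 passed. *Hoxa3* had 20.8 and 15.5 CPM and *Hoxb2* 21.6 and 15.5 CPM, and these passed the microglia-rule share. No UMI of the forebrain factors *Emx1*, *Emx2* and *Otx1*, or of *Hoxb5*, *Hoxc6*, *Hoxa7* and *Hoxb8*, was found. *Meis2*, a partner of Hox proteins, had 97.0 and 101 CPM, and the neural tube factors *Pax6* and *Pax3* had 68.5 and 62.4 CPM and 32.3 and 18.2 CPM.

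Set against all other filtered cells, 147 of 2577 compared genes (5.70%) were at least 4-fold higher in the astrocytes of both libraries, the panel left out. The cells were selected on astrocyte genes, so this is a description. *Lgr6*, a receptor for R-spondins, led with 18.8-fold and 11.5-fold, at 93.2 and 57.8 CPM against 4.96 and 5.02 CPM. *F3*, tissue factor of coagulation, was 15.7-fold and 11.2-fold higher and the secreted protease *Htra1* 13.4-fold and 10.3-fold. *Hsd11b1*, which regenerates active glucocorticoid, was 14.9-fold and 9.24-fold higher at 163 and 75.1 CPM. *Igfbp2*, a binding protein of insulin-like growth factors, was 10.8-fold and 9.58-fold higher at 1756 and 1037 CPM. *Alpl*, an alkaline phosphatase, was 9.88-fold and 10.8-fold higher and *Gpld1*, which releases GPI-anchored proteins, 11.8-fold and 9.63-fold. The Notch glycosyltransferase *Lfng* was 10.9-fold and 9.41-fold higher and the noncoding *Gm3764* stood at 2035 and 1839 CPM against 170.1 and 205 CPM. *Atp13a4*, *Cldn10*, *Phkg1*, *Fgfr3*, *Trpm3* and *Adora2b* made up the rest of the leading 15, between 8.55-fold in the 4OH-tamoxifen library (*Trpm3*) and 12.9-fold in the untreated one (*Atp13a4*). Of the 15, *Atp13a4*, *Phkg1*, *Fgfr3*, *Adora2b*, *Gpld1*, *Lfng* and *Gm3764* were not 2-fold above *Gfap*-*Myoc*-*C4b* astrocytes, described below, in both libraries. The others were. *Phkg1* was 1.33-fold and 1.10-fold and *Adora2b* 1.26-fold and 1.56-fold above them. The general astrocyte list gave 14 of 15 past 4-fold, all but *Aldoc* (4.34-fold and 3.98-fold).

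*Gfap*-*Myoc*-*C4b* astrocytes are the cells most like these. They met the same rule but held at least 4 UMIs of *Myoc*, *Gfap* and *C4b*, and number 167 and 446. Cells with 2 or 3 such UMIs, 85 and 234, belong to neither group, and 143 and 347 of the selected astrocytes held exactly 1. Both groups were cut from measured UMIs, so differences between them are a description. Of 3040 compared genes, 64 (2.11%) were at least 2-fold higher and 173 (5.69%) at least 2-fold lower in the selected astrocytes of both libraries.

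Of 17 compared genes on the receptor list, 3 were at least 2-fold higher (*Gria2*, *Grm5* and *Grin2c*) and 2 lower (*Gria1* and *Adcyap1r1*), with medians of 1.07 and 0.729 against 0.934 and 0.958 over all compared genes. *Gria2* was 5.50-fold (95% interval 4.14 to 7.47) and 5.75-fold (4.59 to 7.28) higher, at 517 and 478 CPM against 93.9 and 83.1 CPM. *Grm5* was 4.13-fold (95% interval 2.85 to 6.18) and 4.54-fold (3.34 to 6.31) higher and *Grin2c*, an NMDA receptor subunit, 2.93-fold and 4.01-fold. *Gria1* went the other way, 2.42-fold and 2.26-fold lower, at 110.1 and 98.4 CPM against 267 and 222 CPM. With 10 or more panel UMIs *Gria2* stood at 527 and 457 CPM and *Grm5* at 256 and 229 CPM. *Lgr6* was 6.33-fold and 5.25-fold higher (lower bounds of the intervals 3.11 and 2.84) and *Igfbp2* 4.72-fold and 4.95-fold. Of the thyroid hormone pair, *Slco1c1* was 15.1-fold (95% interval 5.76 to 56.0) and 5.21-fold (2.96 to 10.0) and *Dio2* 3.81-fold and 2.32-fold higher. *Slco1c1* also marks brain endothelium. It stood at 121 and 74.9 CPM with 10 or more panel UMIs against 111 and 67.9 CPM in all members, and endothelial markers reached 4 UMIs in 0.463% and 0.242% of the former and in 2.75% and 0.576% of the latter. The glycine transporter *Slc6a9* was 2.47-fold and 2.32-fold higher, *Pygm* 3.27-fold and 2.36-fold, *Slc2a1* 2.31-fold and 2.02-fold, *Gpc5* 3.44-fold and 3.10-fold and *Htra1* 3.49-fold and 2.87-fold. *B3galt2*, a galactosyltransferase, *Clmn* and *Mir124-2hg*, the host of a microRNA known from neurons, also stood among the leading 10, and *Mir124-2hg* had 74.5 and 62.2 CPM with 10 or more panel UMIs against 69.3 and 61.5 CPM in all members.

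The leading 10 also held *Col1a1* and *Igf2*, which mark fibroblasts. *Col1a1* was 4.08-fold (95% interval 2.67 to 6.49) and 6.78-fold (3.58 to 14.4) and *Igf2* 3.71-fold (95% interval 2.35 to 6.13) and 18.8-fold (6.29 to 92.4) higher. Only 8.47% and 5.00% and 4.03% and 2.59% of the astrocytes held them, and with 10 or more panel UMIs *Col1a1* stood at 43.7 and 38.6 CPM in place of 180.2 and 67.9 CPM, and *Igf2* at 36.8 and 28.8 CPM in place of 143 and 56.5 CPM. Of the panel genes, *Slc7a10* was 3.65-fold and 3.32-fold and *Gjb6* 2.45-fold and 2.67-fold higher in the selected astrocytes, and *Aqp4* was 2.52-fold and 2.66-fold lower. Both groups had to reach the same panel sum, so these 3 values describe how the sum was made up.

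Of 28 genes on the list of fibrous and reactive astrocytes, 15 could be compared. Of these, 10 were at least 2-fold lower and 0 higher, with medians of 0.309 and 0.339 against 0.934 and 0.958 over all compared genes. The groups were cut apart on *Gfap*, *Myoc* and *C4b*, and 50 CPM was needed only in the higher group. A gene could thus enter through the *Gfap*-*Myoc*-*C4b* astrocytes alone, so the count and medians are no test. *Cd44*, a hyaluronan receptor, was 31.1-fold (13.7 to 87.3) and 19.2-fold (11.7 to 33.2) lower, at 4.62 and 8.20 CPM against 144 and 157 CPM. The matrix protein *Tnc* was 10.7-fold and 11.1-fold lower. The filament gene *Vim* was 4.52-fold and 6.20-fold lower and the neutral amino acid carrier *Slc38a1* 18.4-fold and 16.1-fold. Outside the list, lipoprotein lipase *Lpl* was 20.1-fold and 35.9-fold lower and *Id4* 16.6-fold and 12.6-fold. The leading 10 of this side also held *Mia*, *Cidea*, *Tmie*, *Man1c1* and *Emb*. *Slc16a1* was 6.75-fold and 6.97-fold lower and the chaperone *Clu* 2.90-fold and 3.12-fold. *Phgdh* was 4.52-fold and 2.78-fold lower, and *Fxyd1*, a regulator of the sodium pump, 3.62-fold and 4.12-fold. Of the transcription factors compared, 1 of 21 was higher (*Olig2*) and 5 lower (*Id4*, *Hopx*, *Rfx4*, *Stat3* and *Zfp36l1*). *Slc1a2*, *Slc4a4* and *Kcnj10* stood within 2-fold in both libraries, with 1.08-fold and 1.04-fold for *Kcnj10* and 0.991-fold and 0.970-fold for *Slc4a4*.

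**Figure D3:**
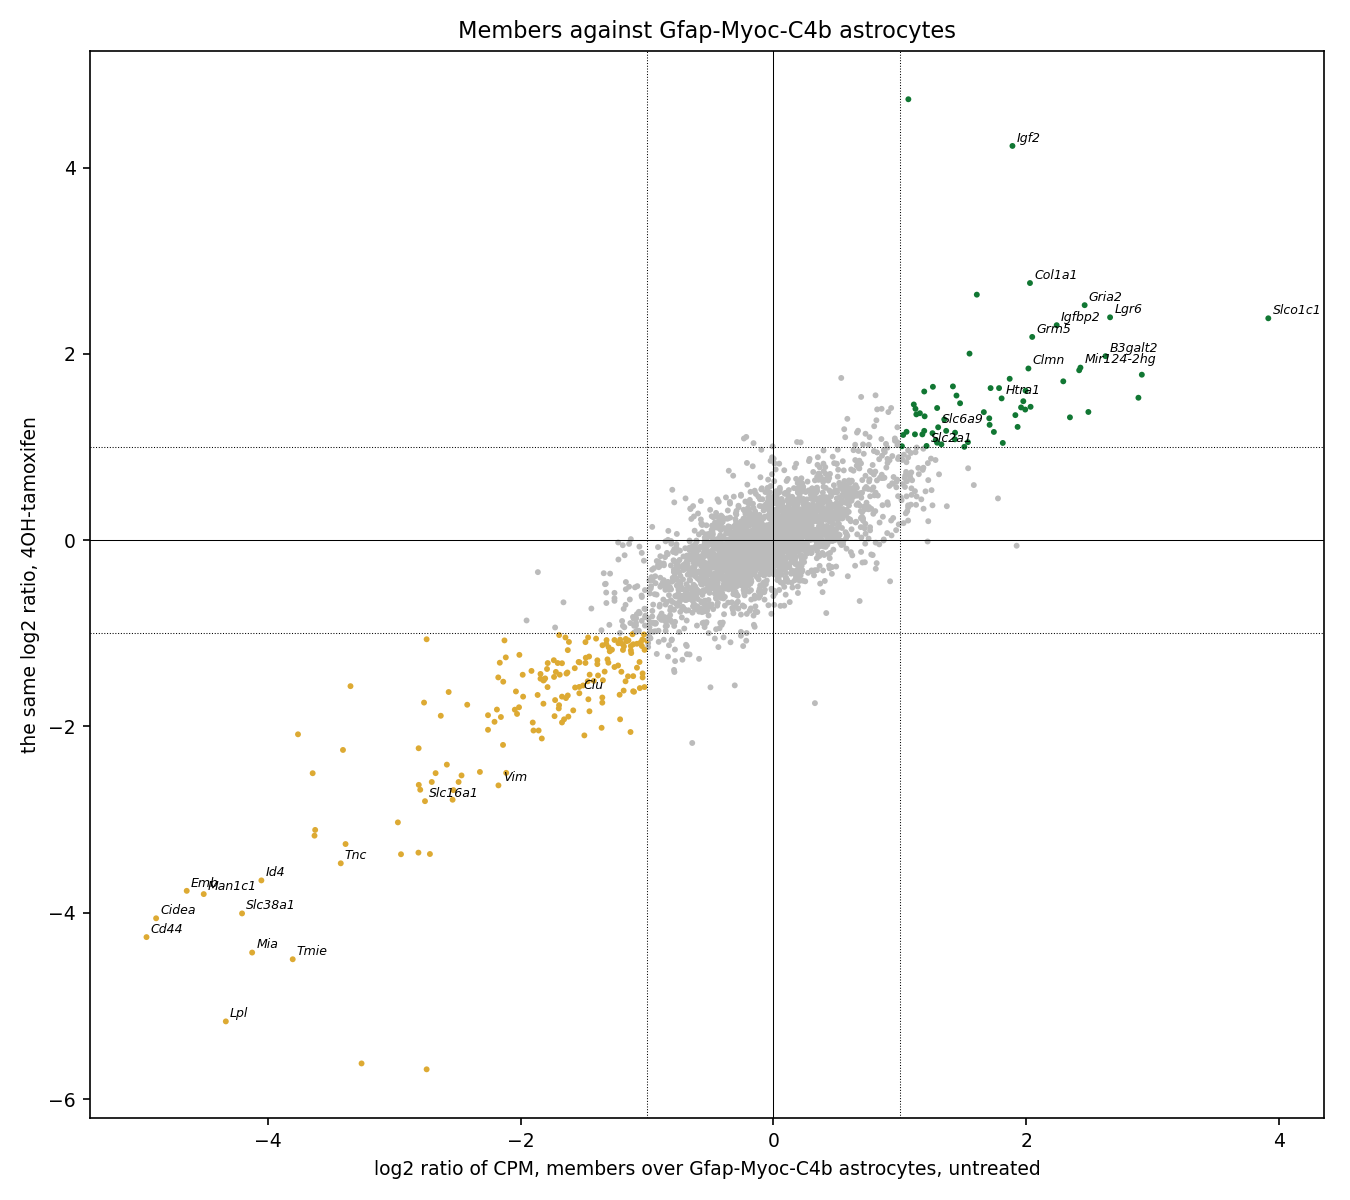
Log2 ratio of CPM in the selected astrocytes over *Gfap*-*Myoc*-*C4b* astrocytes for each compared gene above 0 in all groups, untreated (horizontal) and 4OH-tamoxifen (vertical). Green genes are at least 2-fold higher and yellow genes at least 2-fold lower in both libraries, dotted lines mark 2-fold, and *Gria2* at 5.50-fold and 5.75-fold and *Cd44*, 31.1-fold and 19.2-fold lower, lie at opposite ends.

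Variation among the astrocytes was measured as variance over mean of UMIs, which is 1 for counting alone, in the 407 and 505 cells with at least 2000 UMIs, thinned to that number. Over 2516 genes the medians were 1.06 and 1.05, and 47 genes reached 2 in both libraries. *Meg3* led with 71.1 and 62.9. It was absent from 86.7% and 77.6% of these cells and reached 116 and 97 UMIs in others. *Malat1* followed with 52.9 and 62.3, and *Snhg11*, another neuronal noncoding RNA, with 23.4 and 15.1. *Mbp*, *Cst3* and *Apoe* were among the leading 12, as were *Col3a1*, *Col1a1*, *Col1a2*, *Igf2*, *Vtn* and *Rgs5*, which mark fibroblasts and pericytes. With 10 or more panel UMIs only 17 of 2413 genes reached 2, and 5 of the leading 12 were the same genes, *Meg3*, *Malat1*, *Mbp*, *Cst3* and *Apoe*. The collagens, *Igf2*, *Vtn* and *Rgs5* were no longer among them. *Mt1* and *Mt2*, which bind metals, then entered with 3.80 and 3.75 and with 3.21 and 2.99. *Xist*, expressed by female cells, entered too with 3.97 and 3.07, and male and female mice were pooled. In these cells *Slc1a2* had 1.46 and 1.54, and *Aldoc* 1.35 and 1.48.

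Between the libraries, 30 of 3250 compared genes (0.923%) were at least 2-fold higher and 32 (0.985%) at least 2-fold lower in the 4OH-tamoxifen astrocytes, and the median ratio over all genes was 1.02. A gene was compared with at least 50 CPM in the higher and 20 UMIs in the lower library. With 10 or more panel UMIs the counts were 46 (1.47%) higher and 20 (0.641%) lower of 3119, of which 20 and 16 had been called before. The count of higher genes was 205 with cells of 1200 genes or more (23 of the 30 among them), 91 with cells thinned to 2000 UMIs (24 of the 30), 4 with at most 10% mitochondrial UMIs (0 of the 30) and 2 at 200 CPM or more. The lower count was 48 (11 of the 32), 41 (14), 96 (19) and 3 there. On the lists of general astrocyte, potassium, uptake, acid, purinergic, receptor and metabolism genes, 0 reached 2-fold in either direction, with or without the members of few panel UMIs.

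Genes of cholesterol synthesis made up 8 of the 32 lower genes. All 17 that could be compared, of 22 on the list, were below 1, with a median ratio of 0.542. *Msmo1*, a sterol oxidase, stood at 386 CPM in the untreated and 165 CPM in the 4OH-tamoxifen astrocytes, a ratio of 0.428 (95% interval 0.373 to 0.491). *Dhcr7*, an enzyme of the last steps to cholesterol, had 163 and 62.4 CPM, a ratio of 0.384 (95% interval 0.307 to 0.478). *Sqle*, the squalene epoxidase, had 155 and 70.6 CPM, a ratio of 0.456 (95% interval 0.367 to 0.565). These genes were called by their ratios, and their intervals cover counting error in 1 library per condition, so the intervals are no test. *Mvd* and *Fdps*, of the mevalonate and isoprenoid steps, had the lowest ratios, 0.354 and 0.370. *Fdft1*, *Nsdhl* and *Sc5d* had 0.480, 0.432 and 0.435. *Hmgcs1*, which acts early in the mevalonate steps, went from 273 to 199 CPM, a ratio of 0.730 (95% interval 0.633 to 0.842). The regulator *Srebf2* had 0.941 (95% interval 0.727 to 1.22), an interval that holds 1.

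The list was set beside other cells of the same libraries. Summed over its genes, the astrocytes held 2384 and 1332 CPM, a ratio of 0.559 (95% interval 0.531 to 0.588). The *Gfap*-*Myoc*-*C4b* astrocytes gave 0.600 (0.564 to 0.638), the microglia-rule cells 1.09 (0.987 to 1.21) and all other filtered cells 1.02. Over the same 17 genes the median ratio was 0.584 in *Gfap*-*Myoc*-*C4b* astrocytes, 1.05 in microglia-rule cells and 0.939 in all other filtered cells, of which 10 were below 1. The members' summed ratio stayed below 1 under the 12 other settings run for it, at most 0.647 with cells of 1200 genes or more. With 10 or more panel UMIs the summed ratio was 0.542, 17 of 17 were below 1 and 8 were at least 2-fold lower. Among astrocytes with at least 2000 UMIs, thinned to that number, the share with a *Msmo1* UMI was 52.8% and 26.9%. Depth differed between the libraries. In microglia-rule cells the 15 general astrocyte genes summed to 1587 and 2914 CPM, and Scrublet marked 0.159% and 5.31% of barcodes. The part of depth, free RNA or doublets in the cholesterol values was not tested. In the astrocytes themselves those 15 genes had a summed ratio of 0.958.

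**Figure D4:**
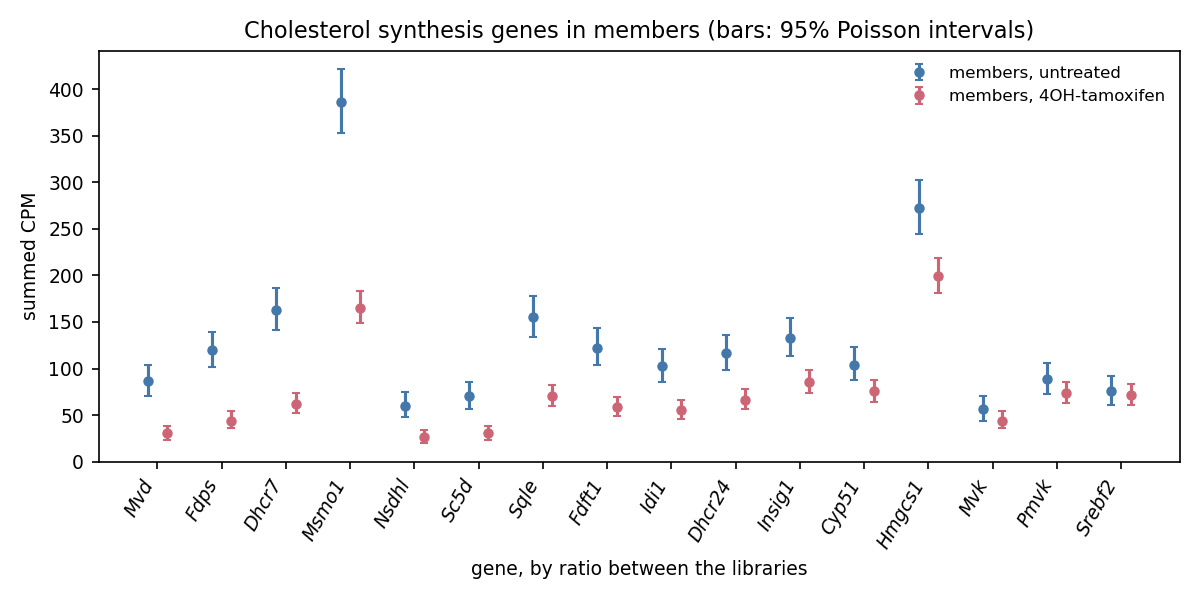
Summed CPM (vertical) of 16 of the 17 compared genes of cholesterol synthesis (horizontal, ordered by ratio) in the untreated (blue) and 4OH-tamoxifen (red) astrocytes, with 95% Poisson intervals of the counts as bars. The 4OH-tamoxifen point is the lower of each pair, and *Msmo1* is highest in the untreated library at 386 CPM.

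Promoters of this pathway are known for CCAAT boxes and sterol response elements. RefSeq start sites on GRCm38.p6 were matched for 15 of the 22 listed genes. The letters CCAAT were found on either strand within 250 bases before the start in 15 of 15, against 37.5% of 27025 genes. A sterol response element, searched for as 10 exact letters on either strand, was found in 0 of the same 15, against 0.0814% of all genes. Windows of 60 bases, read 5' to 3' in the direction of the gene, show the CCAAT (or its reverse complement ATTGG) in capitals for 5 genes that were at least 2-fold lower together. Capitals mark the copy nearest the start, and any other copy is left in lower case. Of several listed starts, the first with CCAAT on either strand gave the window. Any such start made a gene count, here and over all genes. The *Dhcr7* and *Msmo1* windows lie inside the annotated spans of these genes (chr7:143823145-143848410 and chr8:64718139-64733792). *Fdps*, *Fdft1* and *Sqle* were not matched. A match describes letters, not a site.
Mvd (chr8:122443423-122443482, minus strand): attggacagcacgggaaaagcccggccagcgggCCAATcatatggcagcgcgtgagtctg
Msmo1 (chr8:64733601-64733660, minus strand): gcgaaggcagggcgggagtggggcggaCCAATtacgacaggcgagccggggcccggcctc
Nsdhl (chrX:72918461-72918520, plus strand): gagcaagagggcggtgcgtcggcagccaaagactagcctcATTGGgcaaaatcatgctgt
Sc5d (chr9:42264301-42264360, minus strand): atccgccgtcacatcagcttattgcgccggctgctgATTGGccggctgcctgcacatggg
Dhcr7 (chr7:143830138-143830197, plus strand): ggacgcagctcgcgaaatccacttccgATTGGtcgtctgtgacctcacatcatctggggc

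Markers of fibroblasts, pericytes and endothelium were among the other lower genes. *Ptgds*, a prostaglandin synthase of the meninges, had the lowest ratio, from 594 to 53.3 CPM, 0.0897 (95% interval 0.0732 to 0.109). It was found in 7.42% and 1.15% of astrocytes, and its ratio in all other filtered cells was 0.0774. *Dcn*, *Mgp*, *Vtn*, *Ifitm2*, *Ifitm3*, *Col3a1*, *Nupr1* and *Pltp* followed, from 0.179 to 0.314, with ratios of 0.0706 to 0.462 in all other filtered cells. *Col3a1* and *Pltp* stood above 1, at 1.57 and 1.04, when cells were thinned to 2000 UMIs. Of the 7 fibroblast markers 6 were compared and 5 were lower, with a median of 0.333 in the astrocytes and 0.409 in all other filtered cells. Of the 8 pericyte markers 2 were compared and 1 was lower (*Vtn*, 0.211), with medians of 0.458 and 0.412. Both endothelial markers compared, *Pltp* and *Itm2a*, were lower, with medians of 0.345 and 0.425. With 10 or more panel UMIs only *Ptgds* and *Vtn* of the 9 genes from *Ptgds* to *Pltp* named here could still be compared, the others falling under 50 CPM. *Ptgds* was then 529 and 32.8 CPM.

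On the higher side, *Map7d2*, a microtubule-associated protein, led with 20.8 and 71.1 CPM, a ratio of 3.42 (95% interval 2.26 to 5.35). *Basp1*, of growth cones, had 36.2 and 111 CPM, a ratio of 3.06 (95% interval 2.23 to 4.27). *Srcin1*, *Traf3*, *Ttc9b*, *Atp6v1g2*, *Pacs2*, *Epb41l3*, *Pak3* and *Rab6b* followed with 2.63 to 2.28, and 1.36 to 1.80 in all other filtered cells. The same genes had 1.49 (*Rab6b*) to 5.96 (*Pak3*) in microglia-rule cells and 1.27 (*Rab6b*) to 3.54 (*Srcin1*) in *Gfap*-*Myoc*-*C4b* astrocytes. In these 2 groups *Map7d2* had 2.70 and 2.81 and *Basp1* 1.21 and 2.03. *Basp1* stood at 217 and 262 CPM in microglia-rule cells and 116 and 162 CPM in all other filtered cells, and *Traf3*, an adaptor of immune signalling, at 31.6 and 82.4 CPM in the astrocytes and 27.5 and 49.5 CPM in all other filtered cells. None of these 10 is on the neuron list. On that list 12 were compared, 1 was at least 2-fold higher (*Tubb3*, 2.05) and all 12 were above 1, with a median of 1.63 in the astrocytes and 1.63 in all other filtered cells. In *Gfap*-*Myoc*-*C4b* astrocytes the median over the same 12 was 1.24, 5 of them were below 1, and the summed ratio of the neuron list was 0.841 (95% interval 0.790 to 0.896), against 1.48 (1.42 to 1.54) in the selected astrocytes. With 10 or more panel UMIs 8 of 10 were at least 2-fold higher, with a median of 2.26. The neuron markers summed to 915 and 1733 CPM in microglia-rule cells, a ratio of 1.89 (95% interval 1.77 to 2.03). The part of free RNA or doublets in these values was not tested.

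**Figure D5:**
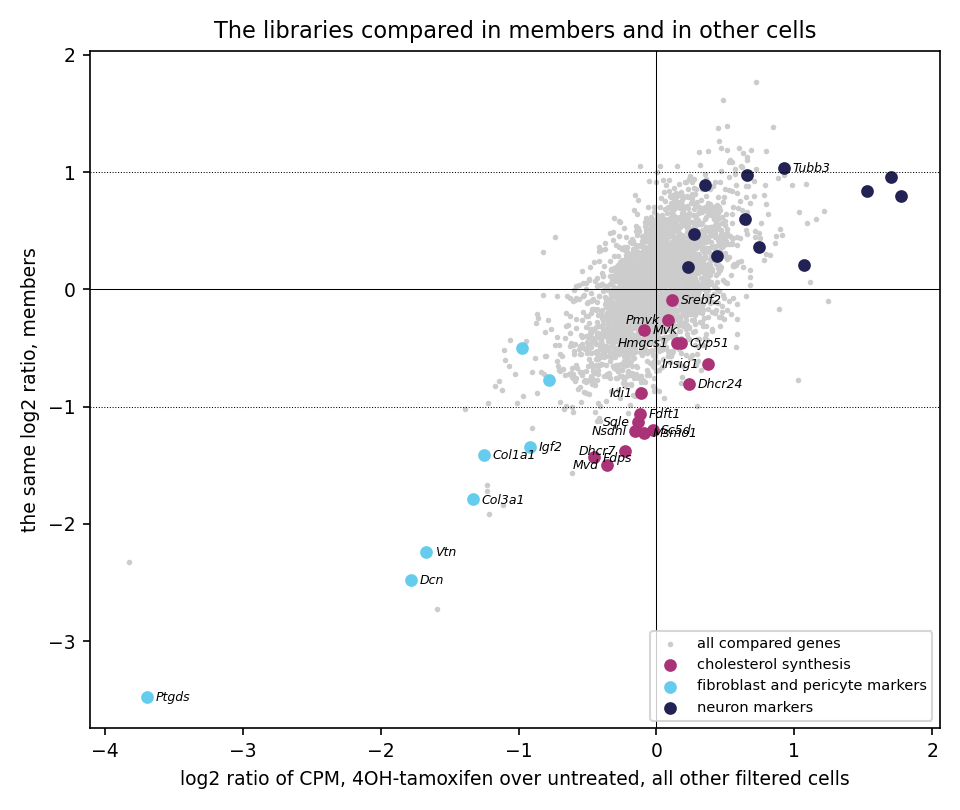
Log2 ratio of CPM, 4OH-tamoxifen over untreated, in the selected astrocytes (vertical) and in all other filtered cells (horizontal) for each compared gene, with 16 of the 17 cholesterol synthesis genes and the fibroblast, pericyte and neuron genes coloured and dotted lines at 2-fold. Cholesterol genes lie below 0 on the vertical axis and on both sides of 0 on the horizontal axis, with medians over all 17 of 0.542 in the astrocytes and 0.939 in other cells, whereas fibroblast and neuron genes lie off 0 on both axes.

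Abundant genes that differed by less than 2-fold are given with their ratio in other cells. *Mt1* and *Mt2* had ratios of 1.74 and 1.56 in the astrocytes and 1.72 and 1.76 in all other filtered cells. *Cst3* had 0.624 and 0.625, and *Apoe* 0.616 and 0.704. *Slc1a2* had 1.17 (95% interval 1.12 to 1.23) and 1.51. *Klf9*, which responds to glucocorticoid and thyroid hormone, had 1.32 and 1.28. The estrogen receptor *Esr1* had 0 UMIs in the untreated and 1.37 CPM in the 4OH-tamoxifen astrocytes, *Esr2* had 0 UMIs in both, and *Pgr*, a gene induced by estrogen in many tissues, had 1.54 and 3.64 CPM.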

How the data were processed

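Ventral medullary cells of the 2 libraries were captured with 10X Genomics version 2 chemistry. Per the labels and the submitters' processing notes, the authors processed reads with bcl2fastq 2.18.0.12 and Cell Ranger 2.2.0 on mm10, and deposited a matrix of UMI counts per gene and barcode for each library. Counts were used as deposited, with gene names from the files, in Python 3.11.15 with numpy 2.4.6, scipy 1.17.1 and pandas 2.3.3. UMIs were summed over the selected cells of a library and divided by their total. Shares of cells carry exact Clopper-Pearson intervals, levels exact Poisson intervals and ratios exact conditional intervals, all at 95%. A limit for a count of 0 rests on 3 cells. With 1 library per condition, no p-value was computed between conditions.

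The members and gene lists were chosen with earlier results of these data known. A gene passed the microglia-rule share when the interval of its share of members lay above that of microglia-rule cells in both libraries. Calls in both libraries needed 2-fold against *Gfap*-*Myoc*-*C4b* astrocytes, with 50 CPM in the higher group of each library and no minimum in the lower, and 4-fold against all other filtered cells, with 50 CPM. The comparison between libraries alone needed 20 UMIs in the lower one. Genes are named by the rule, by the lists, as the 12 most abundant, as the 10 largest ratios in each direction, as the 15 largest over other cells and as the 12 most variable. Variance was computed on genes with a mean of at least 0.1 UMIs after thinning to 2000 UMIs. Wherever cells were thinned, those with fewer UMIs than the target were left out. Intervals, calls and thinning were tested on simulated Poisson counts. These hold no excess variance between cells, so that test does not cover the intervals of genes with much of it. Doublets were not removed, and Scrublet in scanpy 1.11.5 was run as an alternative. Starts and promoters came from RefSeq for GRCm38.p6. Alternatives changed the panel, the *Gfap* limit, the filters on cells, doublets, depth, scaling and low values. A few genes of the lists and rankings are counted but not reported here by name.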

Additional observations from a re-analysis of the deposited data

Results flagged for a closer look

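*3110035E14Rik* was the only one of the 62 genes called between the libraries whose ratio in members and in all other filtered cells lay on opposite sides of 1, with both intervals away from 1. In the members it stood at 47.0 CPM in the untreated and 97.5 CPM in the 4OH-tamoxifen library, a ratio of 2.07 (95% interval 1.55 to 2.80), and the ratio was 2.07 with 10 or more panel UMIs. In all other filtered cells it stood at 135 and 124 CPM, a ratio of 0.921 (95% interval 0.873 to 0.972), and in *Gfap*-*Myoc*-*C4b* astrocytes the ratio was 1.42. The difference was not tested, since each condition has 1 library.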

How the results depend on the processing

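Over 15 other settings and 1 chosen after seeing the data (10 or more panel UMIs), 815 of 945 values kept their direction and moved by little (a count by no more than 1.5 times). The member share, 14.1% untreated, was 9.84% with 0 UMIs of *Myoc*, *Gfap* and *C4b*, 9.11% with 1200 genes, 4.82% with at most 10% mitochondrial UMIs and 12.9% with 10 panel UMIs. The 4OH-tamoxifen share, 11.5%, was 12.7% with 3 panel UMIs, 10.6% with 6, 9.14% with 10, 7.67% with 0 UMIs of *Myoc*, *Gfap* and *C4b*, 3.91% with 1200 genes, 4.74% with 10% mitochondrial UMIs and 8.91% with cells thinned. The 30 genes higher between libraries became 80 with 3 panel UMIs, 56 with 6, 46 with 10, 78 with *Aqp4*, *Gja1* and *Gjb6* alone, 61 with 0 UMIs of *Myoc*, *Gfap* and *C4b*, 205 with 1200 genes, 4 with 10% mitochondrial UMIs (0 of the 30), 19 without Scrublet-marked barcodes (18 of the 30), 91 with cells thinned (24 of the 30), 46 without mitochondrial, ribosomal and hemoglobin genes, 50 at 10 CPM and 2 at 200 CPM. The 32 lower became 96 with 10% mitochondrial UMIs (19 of the 32), 20 with 10 panel UMIs, 96 at 10 CPM and 3 at 200 CPM. The 64 higher and 173 lower genes against *Gfap*-*Myoc*-*C4b* astrocytes became 192 and 389 at 10 CPM and 15 and 47 at 200 CPM. The 147 over other cells became 86 by the mean of each cell's CPM, 255 at 10 CPM and 52 at 200 CPM. The 172 listed genes past the microglia-rule share became 101 when a cell needed 2 UMIs. Of the 12 most variable genes, 7 remained with 6 panel UMIs and 5 with 10. The cholesterol ratio in members, 0.559, was 0.647 with 1200 genes and 0.623 with 10% mitochondrial UMIs, and that of other cells, 1.02, was 1.13 and 1.19 there, 1.15 with cells thinned and 0.981 by the mean of each cell's CPM, which turns its direction. *Col3a1* (1.57) and *Pltp* (1.04) turned above 1 with cells thinned. The cause of these shifts was not tested. No paired analysis was possible because each condition has 1 library, and for the same reason no library could be left out. Low transcripts are limited by a median of 2580 and 1984 UMIs per cell, and a count of 0 allows a share of up to 0.636% or 0.288%.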

Other observations

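Immediate-early and heat shock genes were lower in the members than in microglia-rule cells, with sums over the 30 listed of 1541 and 1265 CPM in members, 1546 and 1436 CPM in *Gfap*-*Myoc*-*C4b* astrocytes, 3341 and 2023 CPM in all other filtered cells and 10298 and 6105 CPM in microglia-rule cells. Of the 30, 0 passed the microglia-rule share, which 7.45% of all genes with a UMI in either group passed. *Fos* was found in 7.84% and 4.51% of members against 77.7% and 51.5% of microglia-rule cells, and *Junb* in 5.30% and 2.40% against 95.0% and 72.2%. *Egr1* was found in 4.24% and 2.02% of members, and no UMI of *Egr2* or *Egr3* was found. *Nfkbia*, an inhibitor of NF-kappa-B, was found in 37.3% and 29.4% of members against 78.3% and 55.5%. None of the 22 cell cycle genes passed either, with *Mki67*, a marker of dividing cells, in 0.636% and 1.15% of members.

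The enzyme *Hsd11b1* was lower in the 4OH-tamoxifen members, at 163 and 75.1 CPM, a ratio of 0.460 (95% interval 0.373 to 0.567), and 0.467 with 10 or more panel UMIs. Of 23 steroid-response genes, 6 passed the microglia-rule share and 0 of the 9 compared reached 2-fold between libraries, with a median ratio of 1.12. The list's summed ratio was 1.60 in members, 1.95 in *Gfap*-*Myoc*-*C4b* astrocytes, 1.46 in microglia-rule cells and 1.46 in all other filtered cells, and most of its UMIs were of *Mt1* and *Mt2*. *Klf9*, induced by glucocorticoid, was found in 42.2% and 43.2% of members against 5.26% and 9.31% of microglia-rule cells. *Klf15*, which responds to the same hormone, was 7.12-fold and 5.91-fold above all other filtered cells, at 51.6 and 54.2 CPM. The glucocorticoid receptor *Nr3c1* had 109 and 89.3 CPM, in 26.3% and 16.5% of members against 24.5% and 16.2%. The mineralocorticoid receptor *Nr3c2* had 25.4 and 22.3 CPM. Of 20 hypoxia genes, 4 passed, and all 9 compared had ratios below 1 between the libraries, from 0.631 (*Vegfa*) to 0.965 (*Bnip3l*) with a median of 0.742, as did 1567 of all 3250 compared genes. Of the same 9, 8 were below 1 in all other filtered cells (median 0.820), 7 in *Gfap*-*Myoc*-*C4b* astrocytes and 7 in microglia-rule cells, and with 10 or more panel UMIs 8 were below 1 in the members.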
